A study of Homo sapiens with 12 samples.

Results

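The LM3 libraries are 6 of the 12 libraries of this RNA-seq series, 3 from cells transfected with siFASRL and 3 from cells transfected with siNC. The series belongs to a study of lipid metabolism in hepatocellular carcinoma and of lncRNAs under superenhancer control. FASRL is the lncRNA targeted by the siRNA. LM3 is a hepatocellular carcinoma cell line, and the other 6 libraries come from HepG2. RNA was collected 48 h after transfection in all 4 groups. Genes were kept where the deposited value was at least 1 in 3 or more of the 6 LM3 libraries, which held for 7483 of the 8842 listed genes and left 1359 untested. Fatty acid metabolism was set aside, and the response of LM3 was read across all other functions. FASRL itself is not listed, so its level cannot be read from these values.

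Several control systems lie behind the functions described. SREBP factors, held in the endoplasmic reticulum by INSIG proteins, switch on the enzymes of cholesterol synthesis when sterols are short. AP-1 factors, DUSP phosphatases and secreted cytokines are early products of stress and growth factor signalling. YAP and TEAD proteins drive CYR61, CTGF and ANKRD1 in response to cell shape and tension. MYC drives the nucleolar factors that build ribosomes. The ATF6, XBP1 and ATF4 branches adjust the folding capacity of the endoplasmic reticulum and the supply of amino acids. Interferon-stimulated genes answer to STAT2 and IRF factors, and CDKN1A is the best known target of p53. Liver cells are held in their state by factors such as HNF4A, CEBPA and CREB3L3.

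The 6 LM3 libraries separated by treatment. Log2 values correlated with Pearson's r of 0.9982 to 0.9985 within siFASRL and of 0.9495 to 0.9567 between the groups. Among the siNC libraries, replicates 2 and 3 correlated with 0.9983, whereas replicate 1 correlated with them at only 0.9926 and 0.9931, so it stands apart. Its difference from the other siNC libraries followed the GC content of the transcripts. From the fifth of genes with the lowest GC to the fifth with the highest, the median difference was 0.095, 0.052, 0.017, -0.063 and -0.167 on the log2 scale. CEBPD is a gene with a low value in siNC replicate 1, with siNC values of 14.3, 28.1 and 28.02. COX5B, a subunit of complex IV, was listed in siNC at 192, 296 and 306. Without siNC replicate 1, 584 genes were called in place of 570, and 532 of the 570 calls were kept. Replicate 1 was kept.

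Values summed over the listed genes came to 316534, 320399 and 321859 in siNC and to 346884, 348573 and 347042 in siFASRL. At the same time fewer genes reached a value of 1 after FASRL knockdown, 7197, 7206 and 7210 against 7486, 7488 and 7498 in siNC. The sum was thus spread over fewer genes. FTH1, the heavy chain of ferritin, took the largest gain, and its mean value increased by 2827, ahead of the ribosomal protein RPS2 (1436) and the nucleolar protein NPM1 (915). FTL, the light chain of ferritin, moved the other way, with a mean decreased by 276, and was picked after its values were seen. RPLP0, a protein of the ribosomal stalk, lost most, and its mean decreased by 1980. The next largest loss was that of MTRNR2L2, a nuclear copy of mitochondrial 16S rRNA that was picked after its values were seen, with a mean decreased by 1684. Reads of MTRNR2L2 cannot be separated here from those of the mitochondrial transcript.

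Marker genes were those of epithelial cells with few hepatocyte transcripts. KRT18, a keratin of simple epithelia, had values of 855, 998 and 969 in siNC and 728, 783 and 755 in siFASRL. ALB, the gene of albumin, did not exceed 0.62 in any LM3 library, against a HepG2 mean of 525. AFP, the fetal counterpart of albumin, stayed at or under 0.45, against 429 in HepG2. APOA1 (at most 0.31), TTR (0.05), GPC3 (0.43) and TF (0.17) were close to 0 in LM3 as well. SERPINA1 reached 1.73 in siNC replicate 2 and had a HepG2 mean of 1149.5. HNF4A, a factor of hepatocyte identity, was present at 14.4, 14.4 and 14.2 in siNC and 6.32, 7.64 and 6.17 in siFASRL. Of the mesenchymal markers, COL1A1 and PDGFRB were detected, and ACTA2, COL3A1, DCN and LUM stayed under 1. The endothelial marker VWF did not exceed 0.35, and the leukocyte marker CD68 had values of 13.4 to 17.7. LYZ (at most 1.73) and CSF1R (at most 0.04), also of leukocytes, were low. No erythroid marker was listed. A small remainder of HepG2-type transcripts was seen. For the 24 genes with a HepG2 mean of at least 100 and LM3 values under 2 throughout, the LM3 values summed to 4.49, 13.7 and 9.76 in siNC and to 4.70, 2.26 and 2.47 in siFASRL. At the median gene this was 0.15% of the HepG2 mean in siNC replicate 2 and 0.0013% in siFASRL replicate 2. Reads assigned to the wrong library, a few foreign cells and true low expression cannot be told apart at this level.

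FASRL knockdown changed a large part of the LM3 transcriptome by small amounts and a small part by large amounts. Far more genes passed the fold change threshold downwards than upwards. A gene is called here where its log2 fold change reached 1 or -1 with a limma adjusted p under 0.05. Of 7483 tested genes, 570 were called (7.62%), 106 of them higher (1.42%) and 464 lower (6.2%) in siFASRL. By adjusted p alone, 2536 genes were higher (33.9%) and 3254 lower (43.5%). All 3 siFASRL values lay on the same side of all 3 siNC values for 5996 genes (80.1%), 2661 higher and 3335 lower, and for every called gene. The median log2 fold change was -0.06, with quartiles of -0.47 and 0.27 and a range from -3.95 to 3.16. Falls of at least 2 were seen for 15 genes and rises of at least 2 for 4.

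The surplus of lower genes shrank with the level of the genes. Of 543 genes with a mean value under 2, 71 were called lower and 5 higher, with a median log2 fold change of -0.44. Among 1003 genes with means from 2 to 5, 117 were called lower and 6 higher. From 5 to 10 there were 101 lower and 15 higher among 1335 genes, from 10 to 20 there were 89 and 16 among 1692, and from 20 to 50 there were 58 and 27 among 1715. From 50 to 100 the balance was the other way, with 17 lower and 21 higher among 667 genes. Of the 103 genes with means of 500 or more, only RPLP0 was called, and their median was 0.35. Calls also followed GC content. In the fifth of genes with the lowest GC, 43 were called lower and 13 higher, and in the fifth with the highest, 185 and 26. Genes called lower had a median transcript GC of 56.3%, against 48.4% for all tested genes and 49.1% for genes called higher. The longest transcripts of genes called higher had a median length of 2415.5 nt, against 3725 nt for all tested genes. Whether these trends come from the cells or from the preparation of the libraries was not tested.

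**Figure D1:**
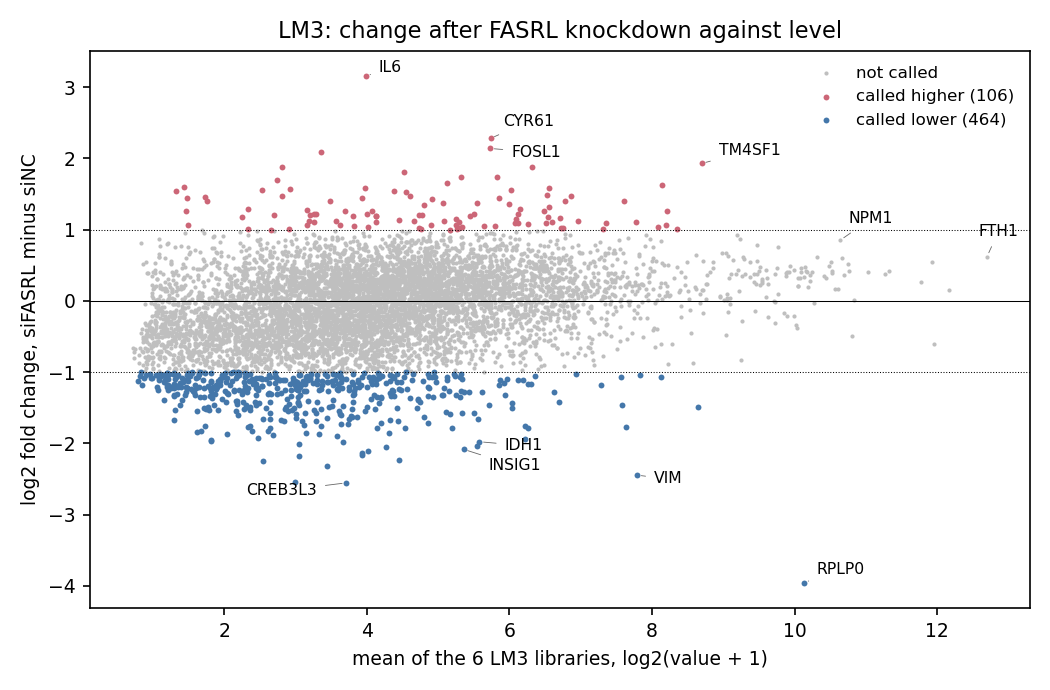
Log2 fold change (siFASRL minus siNC, vertical axis) of each tested LM3 gene against its mean log2 value over 6 libraries (horizontal axis), with genes called higher and lower in color. Lower genes are most frequent towards the left, and RPLP0 lies alone at the bottom right.

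**Figure D2:**
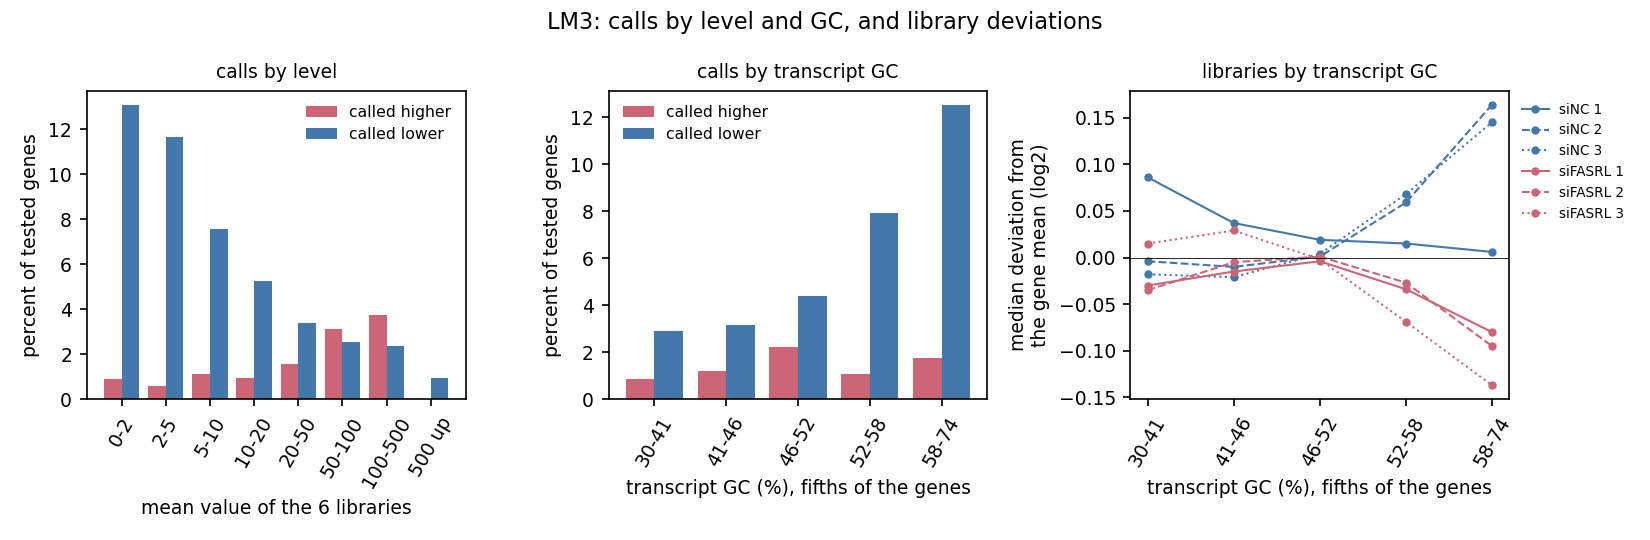
Percentage of tested LM3 genes called higher or lower by mean value and by transcript GC, and median deviation of each library from the gene mean (log2) by transcript GC. The deviation of siNC replicate 1 does not follow that of siNC replicates 2 and 3 in GC-rich genes.

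The scaling of the values decides how lopsided the calls are. With the deposited values, 81.4% of the calls were lower. Quantile normalization gave 260 lower and 163 higher, so that 61.5% were lower. Cyclic loess normalization gave 272 lower and 154 higher (63.8% lower), and centring within bins of transcript GC gave 331 lower and 156 higher (68% lower). Median-of-ratios scaling lay nearer, at 74.9%. No called gene was called in the opposite direction under any of these, and 336 of the 570 calls were kept under quantile normalization. Loess and quantile scaling remove a smooth trend of the fold change with the mean, such as the plot of change against level shows. The filter was passed through siNC alone by 233 genes, of which 81 were called, and through siFASRL alone by 27 genes, of which 6 were called. Alone means that all libraries of that group and none of the other reached 1. Genes with some but not all libraries of the other group at 1, such as ANKRD1 and LGALS3BP, are not in these counts. Of the genes named below, BMF, F11R, HLA-DMA, KIF3C, MMP15, STARD4 and ZNF821 passed it through siNC alone, and HIST1H4H, with siNC values of 0, 0.73 and 0.14, through siFASRL alone. Of the other list members, AGT, PROC, ERAP2, ALDH4A1, ADAMTS6, DDX58, OASL and 9 solute carriers passed through siNC alone and another 7 ZNF genes through a single group, as did FOSB, KLF2, COL4A6, HRK and HIST1H3D through siFASRL. Some of these were picked after their values were seen, and counts without them, added after seeing the data, stand beside their lists. Among the called genes described below, those that lost the call under quantile or loess normalization were ALAD, BMF, CCNG2, CCT5, CEBPD, CFI, DDX21, DNMT3B, EIF1, EIF4EBP2, EIF6, F10, F11R, FGFR4, GSTA4, HLA-DMA, IFITM1, KIF3C, LIPA, LTBP3, MAFK, MMP15, PPP1R14B, SDF2L1, SESN2, SHMT1, SLC4A11, STAT2, TIMP4, USP18, VTN and ZNF821. Those that lost it only with GC or median-of-ratios scaling were CDKN1C, HIBADH, LOC112267876, LTBP4, MSN, MUC1, NDUFA2, NDUFAB1 and SEC24D. Only 28 tested genes were not mRNA genes, and 2 of these were called.

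The largest rises joined secreted factors, AP-1 and histones. IL6, an inflammatory cytokine, had values of 2.3, 2.07 and 2.24 in siNC and 28.2, 27.3 and 27.2 in siFASRL. Its log2 fold change was 3.16 (adjusted p = 1.68e-08), the highest of all tested genes. CYR61, a matrix-associated YAP-TEAD target, was listed at 16.6, 15.9 and 19.2 in siNC and 90.7, 83.8 and 87.6 in siFASRL (2.28, adjusted p = 1.95e-07). The lowest siFASRL value of CYR61 was thus above 4 times its highest siNC value. TM4SF1, a surface protein of the tetraspanin-like family, had the highest siFASRL mean of the genes called higher. Its values were 168, 173 and 174 in siNC and 638, 665 and 671 in siFASRL, and its log2 fold change was 1.93 (adjusted p = 1.57e-07). ADM, the gene of the vasodilator adrenomedullin, went from 14.8, 18.2 and 19.6 to 60.4, 60.01 and 60.8 (1.74, adjusted p = 1.13e-06). All siFASRL values of ADM were near 60, while siNC replicate 1 was the lowest of its group. The remaining genes among the 12 largest rises were IL11, FOSL1, DUSP1, PPP1R15A and 4 histone genes, which are described with their functions.

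The largest falls were of mixed function. RPLP0 had values of 1799, 2299.6 and 2247 in siNC and 125, 139.97 and 139.6 in siFASRL, a log2 fold change of -3.95 (adjusted p = 1.57e-07). In HepG2 its log2 fold change was -4.72. Near-identical RPLP0 pseudogenes exist, and how reads were divided among them was not tested. TMEM37, a small membrane protein related to calcium channel subunits, fell from 12.9, 13.5 and 11.3 to 1.26, 1.16 and 1.6 (-2.54, adjusted p = 2.34e-07). LGALS3BP, a secreted ligand of galectins, had values of 7.71, 9.15 and 9.12 in siNC and 1.02, 0.99 and 1.05 in siFASRL (-2.25, adjusted p = 1.95e-07), and none of its siFASRL values came near the siNC range. TSPAN13, a tetraspanin, had a log2 fold change of -2.17. MAP2K6 encodes the kinase that activates p38, and its values were 24.2, 23.6 and 24.2 in siNC and 4.11, 4.25 and 5.44 in siFASRL. That is a log2 fold change of -2.17 (adjusted p = 3.63e-07), with tight siNC values and siFASRL replicate 3 slightly above the other siFASRL libraries. CRIP2, a LIM domain protein, changed by -2.13, and DPYSL2, a microtubule-binding protein of growing cell processes, by -2.1. CREB3L3, VIM, ALDOC, MSMO1 and INSIG1 complete the 12 and are described further on.

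**Figure D3:**
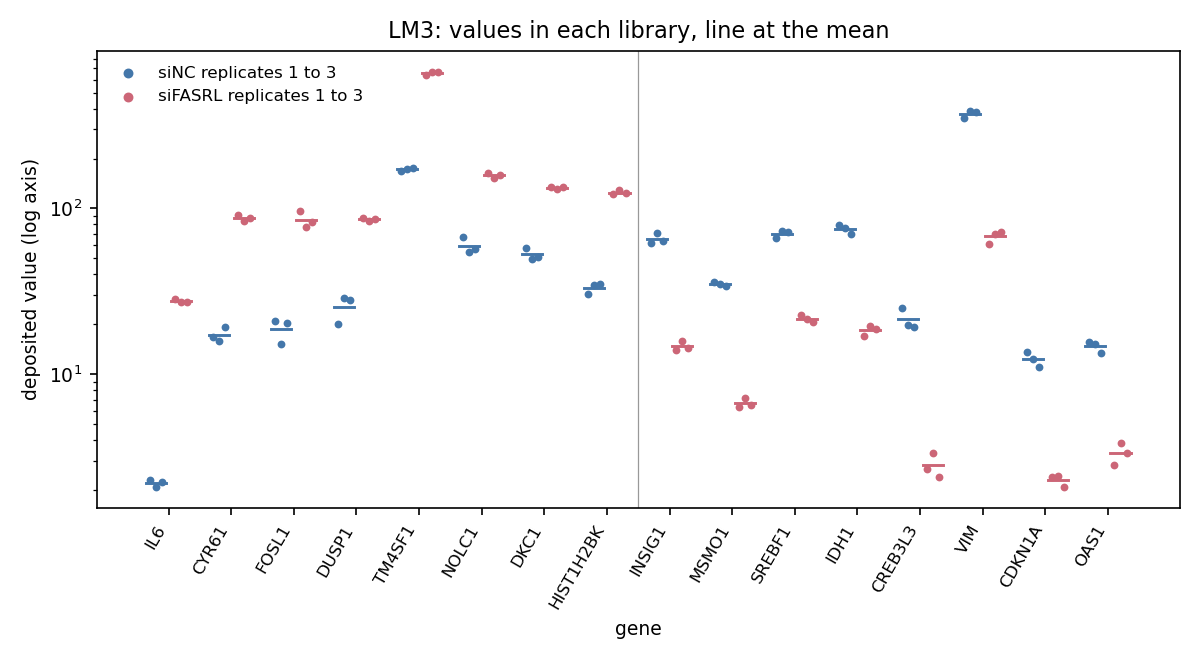
Deposited values (log axis) of 16 LM3 genes in each of the 3 siNC and 3 siFASRL libraries, with lines at the group means. Genes to the left of the vertical line rose after FASRL knockdown and those to the right fell, without overlap of the groups.

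Abundant genes that were called add a few functions. CCT5, a subunit of the chaperonin that folds actin and tubulin, had values of 193, 223 and 229 in siNC and 424, 438 and 438 in siFASRL (1.01, adjusted p = 3.88e-06). PPP1R14B, an inhibitor of protein phosphatase 1, rose by a log2 fold change of 1.03. S100A4, a calcium-binding protein of motile cells, had values of 512, 654 and 604 in siNC and 187, 219 and 219 in siFASRL (-1.49, adjusted p = 3.34e-06). Its siFASRL values were all under 220 and its siNC values all over 500. MUC1, a transmembrane mucin, fell with a log2 fold change of -1.04, and LOC112267876, a gene without a named function, with -1.07. Of these, CCT5 fell short of the threshold at 0.94 without siNC replicate 1, PPP1R14B at 0.97 without siNC replicate 1 and MUC1 at -0.94 without siNC replicate 1.

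Cytokine genes were few in the tested set, but the ones that moved most were of the IL6 family. Of 14 listed genes of secreted cytokines and chemokines, 6 were tested and 2 were called higher, IL6 and IL11. Of all tested genes 1.42% were called higher. IL11, which shares the receptor subunit gp130 with IL6, had values of 2.01, 1.74 and 2.17 in siNC and 10.8, 9.74 and 9.39 in siFASRL (1.89, adjusted p = 3.30e-07). All siFASRL values of IL11 exceeded 9, and no siNC value exceeded 2.2. IL32, the most abundant of the group, rose little (0.22, adjusted p = 0.00645). CSF1, the growth factor of macrophages, fell (-0.49, adjusted p = 1.10e-04). Receptors and transducers moved less. None of 16 was called, 11 were higher and 1 lower by adjusted p, and their median was 0.28 against -0.06 for all tested genes. Within NF-kB signalling, TNFAIP3, an inhibitor induced by the pathway, was at 8.56, 9.0 and 9.0 in siNC and 17.4, 17.6 and 16.8 in siFASRL (0.89, adjusted p = 1.37e-06). RELB (0.75), NFKB2 (0.66) and RELA (0.63), subunits of NF-kB, rose by less than the threshold. RNA levels do not tell whether NF-kB was active.

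AP-1 and other immediate early factors rose broadly. Of 24 listed factors 23 were tested, 8 were called higher and none lower, and 19 were higher by adjusted p, against 1 lower. Of all tested genes 1.42% were called higher and 33.9% were higher. Without FOSB and KLF2, which passed the filter through siFASRL alone, 6 of 21 were called, 17 were higher and the median was 0.69. With them the median log2 fold change was 0.85, and it lay between 0.84 and 0.94 under the other scalings. Summed values of the listed factors were 453, 512 and 491 in siNC and 836, 808 and 795 in siFASRL. FOSL1, a FOS family subunit of AP-1, had values of 20.8, 15.1 and 20.2 in siNC and 96.3, 77.3 and 82.8 in siFASRL (2.14, adjusted p = 1.68e-06). Its siFASRL values spread from 77 to 96, all far above siNC. JUN, the partner of FOS proteins, had values of 6.28, 7.77 and 7.68 in siNC and 21.6, 22.1 and 20.3 in siFASRL (1.44, adjusted p = 1.34e-06). ATF3, a stress-induced repressor, went from 10.3, 10.1 and 8.71 to 29.9, 29.4 and 30.9 (1.54, adjusted p = 4.67e-07). NR4A3, an orphan nuclear receptor induced early after stimulation, had a log2 fold change of 1.57 (adjusted p = 2.34e-07). MAFK, the most abundant factor of the group and a small MAF protein without an activation domain, rose from 52.7, 67.3 and 61.1 to 131, 136 and 126 (1.11).

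In the feedback arm of MAP kinase signalling, 3 DUSP phosphatases rose past the threshold. Of 13 tested feedback inhibitors and targets, only these 3 were called higher (23.1%, against 1.42% of all tested genes), and none lower. By adjusted p 8 were higher (61.5%) and 2 lower (15.4%), against 33.9% and 43.5% of all tested genes. The median was 0.26 (0.26 to 0.73 over the scalings). DUSP1, which inactivates p38, JNK and ERK, had values of 19.96, 28.7 and 27.8 in siNC and 87.9, 84.2 and 86.4 in siFASRL (1.74, adjusted p = 4.03e-06). Here too siNC replicate 1 was lower than the other controls, and all siFASRL values were over 84. DUSP5, a nuclear phosphatase of ERK, had values of 17.98, 17.1 and 17.9 in siNC and 49.1, 45.2 and 47.7 in siFASRL (1.37, adjusted p = 3.22e-07). DUSP4 followed with 1.21 (adjusted p = 2.86e-06). PHLDA2, a growth-limiting imprinted gene counted with the targets, fell (-0.89, adjusted p = 1.74e-04). Among 11 growth factor receptors, 5 were higher and 5 lower, and the sign of their median changed under quantile and loess normalization. ERBB3, a receptor that signals together with ERBB2, had values of 18.5, 17.7 and 16.8 in siNC and 5.61, 5.95 and 5.56 in siFASRL (-1.48, adjusted p = 2.89e-07). FGFR4, the liver receptor of FGF19, fell as well (-1.17, adjusted p = 2.11e-06). EGFR, the most abundant receptor of the list, rose slightly (0.37, adjusted p = 2.06e-04), and AXL rose by 0.63. FGF2 showed the largest rise of the ligands (0.65, adjusted p = 1.24e-05), and PDGFB fell (-0.43).

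Targets of YAP and TEAD rose while the genes of the Hippo pathway itself did not move together. Of 19 tested targets, 3 were called higher and none lower, with 14 higher and 3 lower by adjusted p and a median of 0.65. Of all tested genes 1.42% were called higher, and 33.9% were higher and 43.5% lower. ANKRD1, a muscle ankyrin repeat protein and YAP target, had values of 0.80, 0.71 and 1.04 in siNC and 4.12, 3.89 and 3.66 in siFASRL (1.41, adjusted p = 1.15e-06). Only 1 siNC value reached 1, so ANKRD1 met the filter through its siFASRL values. FJX1, a secreted regulator of the atypical cadherin pathway, was called higher as well (1.06), but fell short of the threshold at 0.99 and 0.93 without siFASRL replicate 1 and siNC replicate 1 in turn. CTGF, a neighbor of CYR61 in function, had values of 4.58, 6.04 and 5.99 in siNC and 11.1, 11.7 and 11.4 in siFASRL and missed the threshold at 0.93. MYOF, the most abundant target, had a log2 fold change of 0.00 (adjusted p = 0.997). Of the 8 pathway components 3 were higher and 3 lower, among them the adaptor MOB1A with -0.78 and the DNA-binding factor TEAD4 with 0.70.

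Promoters of the genes called higher were searched for short factor sites. RefSeq promoters of GRCh38.p14 could be assigned to 6124 of the 7483 tested genes (81.8%) and to 86 of the 106 genes called higher (81.1%). The cAMP response element TGACGTCA, which is palindromic and was searched on both strands in the 250 bases before the start of transcription, was found in 11 of the 86 (12.8%). It was found in 213 of the 6124 tested genes (3.48%) and in 482 of all 27305 promoters of the table (1.77%). The AP-1 site TGANTCA was found in 5 of the 86 (5.81%), against 3.79% of tested genes and 6.6% of all promoters. The TEAD site GGAATG was found in 10 (11.6%), against 9.21% and 11.9%. The 11 genes were DUSP1, PPP1R15A, HIST1H2BK and PCSK1 and, named after the search, CCDC86, CMSS1, HIST1H4H, IFRD1, RRP1, SSSCA1 and UBE2S. A match describes the sequence only, and binding of CREB or ATF proteins was not tested. The promoters of 4 of these genes follow, 5′ to 3′ on the strand of the gene, with the element in capitals. That of DUSP1 lies at chr5:172771196-172771445 on the minus strand, with the element starting 125 bases before the start of transcription. For PPP1R15A the interval is chr19:48872171-48872420 on the plus strand (58 bases before the start). For HIST1H2BK it is chr6:27146859-27147108 on the minus strand (99 bases), and for PCSK1 chr5:96433249-96433498 on the minus strand (77 bases).
DUSP1: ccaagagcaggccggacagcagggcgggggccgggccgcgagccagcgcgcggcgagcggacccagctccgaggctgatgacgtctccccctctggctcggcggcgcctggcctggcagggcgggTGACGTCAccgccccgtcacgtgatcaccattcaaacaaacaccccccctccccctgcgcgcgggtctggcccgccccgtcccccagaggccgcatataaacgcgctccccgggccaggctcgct
PPP1R15A: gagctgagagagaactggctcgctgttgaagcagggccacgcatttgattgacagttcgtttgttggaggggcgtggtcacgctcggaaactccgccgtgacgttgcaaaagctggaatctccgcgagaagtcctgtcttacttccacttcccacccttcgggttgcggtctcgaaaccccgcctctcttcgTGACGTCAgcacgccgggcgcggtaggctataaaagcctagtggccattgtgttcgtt
HIST1H2BK: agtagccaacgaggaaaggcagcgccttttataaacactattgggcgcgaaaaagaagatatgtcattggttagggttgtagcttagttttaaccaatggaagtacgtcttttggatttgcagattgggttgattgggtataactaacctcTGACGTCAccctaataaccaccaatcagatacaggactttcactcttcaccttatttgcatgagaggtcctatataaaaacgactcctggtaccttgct
PCSK1: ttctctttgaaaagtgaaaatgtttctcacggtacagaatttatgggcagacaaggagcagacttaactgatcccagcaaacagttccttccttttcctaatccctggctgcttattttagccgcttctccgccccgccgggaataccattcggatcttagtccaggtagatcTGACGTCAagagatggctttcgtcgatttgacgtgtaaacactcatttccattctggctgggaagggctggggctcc

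Histone genes rose as a family. Apart from HIST1H2AC, HIST1H2BK, HIST1H2BD and HIST1H1C, which are among the 12 largest rises, the family was looked at after the values were seen. Of 18 listed HIST genes 15 were tested, all 15 were higher by adjusted p and 8 were called, with a median log2 fold change of 1.2 and a range from 0.25 to 2.1. Of all tested genes 33.9% were higher and 1.42% called higher. HIST1H4H and HIST1H3D, both called, passed the filter through siFASRL alone. Without them and with identical copies taken once, 11 were tested, all 11 were higher and 5 were called. These 11 still include genes that met the filter only with their siFASRL values. They are HIST1H2BC (siNC 0.72, 1.07 and 0.71), HIST1H2BG (0.66, 1.81 and 1.23) and HIST1H2BJ (0.65, 1.55 and 1.29), none of them called. HIST2H4A and HIST2H4B, both called, fell short of the threshold at 0.86 without siNC replicate 1. Summed over the 18 genes, values were 94.1, 119 and 117 in siNC and 304, 315 and 313 in siFASRL. HIST1H2BK, an H2B gene, had the largest share of this, with values of 30.5, 34.3 and 34.8 in siNC and 121, 129 and 123 in siFASRL (1.88, adjusted p = 2.18e-07). HIST1H2AC, an H2A gene, had values of 2.11, 3.48 and 3.05 in siNC and 16, 12.9 and 17.6 in siFASRL (2.1, adjusted p = 4.05e-06). HIST1H1C, the linker histone H1.2, went from 20.2, 14.7 and 13.2 to 50.3, 50.6 and 55.1 (1.66). HIST1H2BD changed by 1.7. Of the replacement histones outside the clusters, H1F0, H3F3B and H1FX rose (0.78, 0.41 and 0.33), and H2AFV fell (-0.29). HIST2H4A and HIST2H4B carry identical values, as do HIST2H2AA3 and HIST2H2AA4, so each pair is a single measurement of near-identical copies. Most histone mRNAs lack a poly(A) tail and the libraries were made by oligo(dT) selection, so the polyadenylated share is measured here and a change in tail use was not tested.

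Genes that build ribosomes showed the most uniform rise of any large list. Of 57 nucleolar factors, 53 were higher and 0 lower by adjusted p, against 33.9% and 43.5% of all tested genes. Of the 57, 6 were called higher, against 1.42% of all tested genes, and the median was 0.69. Under the other scalings the median stayed between 0.60 and 0.76. Their summed values were 3840.3, 3502 and 3614 in siNC and 6266, 6079.6 and 6268 in siFASRL. NOLC1, a nucleolar scaffold of snoRNPs, had values of 67.2, 54.6 and 57.1 in siNC and 165, 153 and 159 in siFASRL (1.4, adjusted p = 1.54e-06). DKC1, the pseudouridine synthase of rRNA, had values of 57.7, 49.4 and 51.1 in siNC and 134, 131 and 134 in siFASRL (1.32, adjusted p = 8.21e-07). For both genes siNC replicate 1 was the highest control and still less than 0.5 of the lowest siFASRL value. UTP4, part of the early small subunit processome, went from 40.97, 39.9 and 41.8 to 98.98, 94.2 and 96.1 (1.22, adjusted p = 3.63e-07), and the helicase DDX21 changed by 1.09. NPM1, the most abundant of them, rose by 0.85 (adjusted p = 1.34e-05). MYC, a known driver of such genes, had values of 56.02, 59.4 and 60.3 in siNC and 120.1, 115 and 114 in siFASRL and a log2 fold change of 0.98 (adjusted p = 1.24e-06), just short of the threshold. The MYC-binding E-box CACGTG, a palindrome searched on both strands, was found between 250 bases before and 50 bases after the start in 21 of the 49 nucleolar genes with a promoter (42.9%). Over the same window it was found in 10.3% of tested genes and in 7.43% of all promoters. In the 250 bases before the start alone it was found in 8 of the 49 (16.3%), against 8.83% of tested genes and 6.49% of all promoters, so most of the matches reached beyond the start. Over the longer window the E-box was found in 3 of 49 cytosolic ribosomal protein genes (6.12%) and in 9.3% of genes called higher. A match describes the sequence only, and binding of MYC or any other factor was not tested. UTP4 is one of the 8 nucleolar genes with a match before the start. Its promoter lies at chr16:69132399-69132648 on the plus strand of GRCh38.p14 (RefSeq), with the E-box in capitals starting 16 bases before the start of transcription.
UTP4: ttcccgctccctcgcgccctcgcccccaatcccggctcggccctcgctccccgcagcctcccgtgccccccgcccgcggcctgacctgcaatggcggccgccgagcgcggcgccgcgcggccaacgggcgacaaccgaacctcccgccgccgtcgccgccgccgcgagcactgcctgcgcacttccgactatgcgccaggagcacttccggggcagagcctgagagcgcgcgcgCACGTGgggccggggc

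Protein synthesis followed at a smaller scale. Of 60 cytosolic ribosomal protein genes, 55 were higher and 4 lower, with a median of 0.41 that ranged from 0.14 to 0.49 over the scalings. Their summed values were 49050.4, 53862 and 54150.3 in siNC and 66069, 67124 and 66809.6 in siFASRL. Only RPL26L1, a relative of RPL26, was called higher, with values of 39.5, 34.7 and 30.1 in siNC and 86.7, 89.99 and 95.8 in siFASRL (1.37, adjusted p = 3.65e-06). RPL36 (0.78) and RPL17 (0.76), both of the large subunit, rose below the threshold. RPS2, the most abundant, rose by 0.55. RPLP0 moved against its family. Of 37 translation factors, 33 were higher and 2 lower, with a median of 0.41 (0.23 to 0.49 over the scalings). EIF1, which guards start codon choice, had values of 216, 176 and 178 in siNC and 392, 406 and 391 in siFASRL (1.06, adjusted p = 6.11e-06). EIF6, a factor of 60S maturation, was called too (1.01, but 0.93 without siNC replicate 1), and the helicase EIF4A1 rose by 0.92. EIF4EBP2, a repressor of cap binding, fell from 30.7, 26.2 and 26.8 to 13.4, 12.8 and 13.3 (-1.03, adjusted p = 3.03e-06, but -0.96 without siNC replicate 1). Mitochondrial ribosomal proteins rose in 48 of 68 cases and fell in 3, with a median of 0.31 (0.25 to 0.38 over the scalings) and none called. The largest change there was that of MRPL58 (0.82). tRNA synthetases were split, 16 higher and 9 lower of 33, with the mitochondrial enzyme IARS2 called lower (-1.11) and FARSB (0.79) and KARS (0.79) higher.

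RNA and protein handling in the nucleus and cytosol shifted slightly upwards, by an amount that depends on the scaling. Among 41 splicing factors 29 were higher and 2 lower (median 0.24, and 0.08 to 0.32 over the scalings), with the U2 snRNP protein SNRPA1 moving most (0.88, adjusted p = 2.23e-06). Nuclear pore and transport genes gave 15 higher and 1 lower of 22 (median 0.25, and 0.15 to 0.33 over the scalings), led by the importin KPNB1 (0.57). Proteasome genes gave 27 higher and 3 lower of 41 (median 0.24, and 0.12 to 0.31 over the scalings), with PSMC3, an ATPase of the base, at 0.67. None of these 3 lists held a called gene. Cytosolic chaperones were divided, with 13 higher and 11 lower of 31 and a median whose sign changed under quantile and loess normalization. HSPB1, a small heat shock protein, had values of 459.9, 515 and 506 in siNC and 269, 276 and 264 in siFASRL (-0.87, adjusted p = 3.47e-06). HSPA8, the constitutive HSP70, fell slightly (-0.22), and HSPH1, its exchange factor, more (-0.70). Genes of ZNF zinc fingers were higher in 95 and lower in 41 of 172 cases (median 0.23, and 0.23 to 0.45 over the scalings), with ZNF45 (1.4) and ZNF239 (1.28) called higher and ZNF821 (-1.01) called lower. ZNF821 fell short of the threshold at -0.9995, -0.996, -0.97 and -0.99 without siFASRL replicate 1, siFASRL replicate 3, siNC replicate 2 and siNC replicate 3 in turn. Without the 8 ZNF genes that passed the filter through a single group, 92 were higher and 36 lower of 164.

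**Figure D4:**
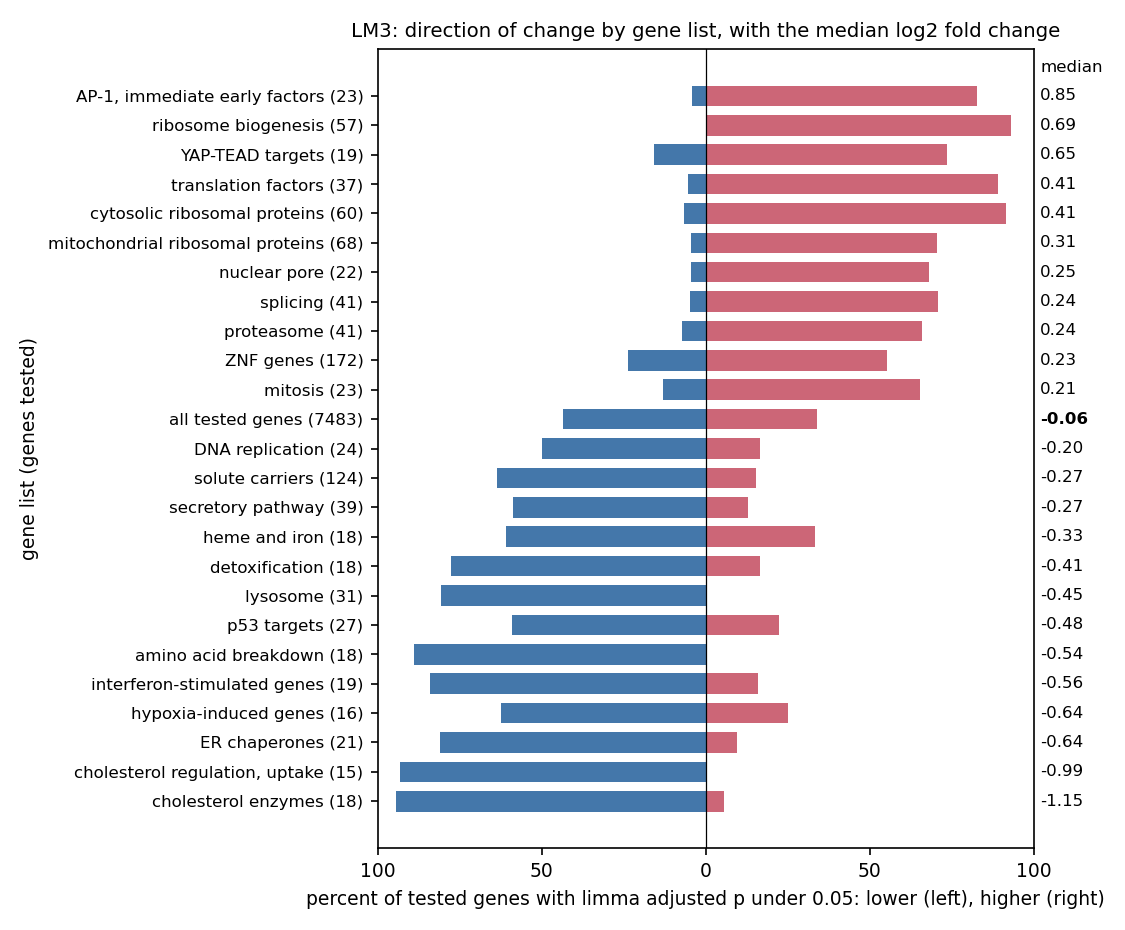
Percentage of tested genes of each list with a limma adjusted p under 0.05 that were lower (left) or higher (right) in LM3 siFASRL, with the median log2 fold change beside each bar. Immediate early factors and ribosome biogenesis stand at the top and cholesterol synthesis at the bottom, and medians close to 0 change sign with the scaling for several lists.

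Cholesterol synthesis had the lowest median of all lists. Of 18 enzymes, 11 were called lower and none higher, and 17 were lower by adjusted p and 1 was higher. Of all tested genes 6.2% were called lower and 43.5% were lower. The median of the enzymes was -1.15. It lay between -1.15 and -0.96 under all scalings. Summed enzyme values were 842, 869 and 857 in siNC and 398, 408 and 418 in siFASRL, so that all 3 siFASRL sums lay under 0.5 of the siNC sums. MSMO1, which removes the methyl groups at carbon 4 of sterols, had values of 36.1, 34.8 and 33.9 in siNC and 6.29, 7.2 and 6.51 in siFASRL (-2.23, adjusted p = 1.57e-07). FDFT1, the squalene synthase, had values of 116, 115 and 111 in siNC and 31.2, 34.1 and 33.9 in siFASRL (-1.76, adjusted p = 1.95e-07). In both genes the highest siFASRL value was less than 0.35 of the lowest siNC value. SQLE, the epoxidase that follows, changed by -1.72 (adjusted p = 2.89e-07), and DHCR7, the last reductase of the pathway, by -1.63. EBP, the most abundant enzyme, fell less (-0.59).

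The regulators of sterol supply fell with the enzymes. Of 15 tested genes of regulation and uptake, 7 were called lower and 14 were lower by adjusted p, none was higher, and the median was -0.99. Of all tested genes 6.2% were called lower and 43.5% were lower. Without STARD4, which passed the filter through siNC alone, 13 of 14 were lower. INSIG1, itself an SREBP target, had values of 61.5, 71.4 and 63.4 in siNC and 13.9, 15.8 and 14.3 in siFASRL (-2.08, adjusted p = 2.34e-07). SREBF1, the gene of SREBP1, had values of 66.2, 73.1 and 71.9 in siNC and 22.6, 21.5 and 20.5 in siFASRL (-1.66, adjusted p = 2.52e-07), and its groups were far apart. STARD4, a carrier of cholesterol between membranes, fell from 4.26, 3.76 and 3.36 to 0.21, 0.49 and 0.32 (-1.84). SCARB1, the receptor of HDL, fell by less (-0.56). Sterol levels were not measured, and whether SREBP processing changed was not tested.

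Single enzymes of carbon metabolism changed. Of 23 enzymes of the citrate cycle and its dehydrogenase complexes, 3 were called lower, 13 were lower and 2 higher by adjusted p, and the median was -0.22 (-0.25 to -0.14 over the scalings). Of these enzymes 56.5% were lower and 13% called lower, against 43.5% and 6.2% of all tested genes. IDH1, the cytosolic NADPH-forming isocitrate dehydrogenase, had values of 79.4, 76.1 and 70.1 in siNC and 16.9, 19.4 and 18.8 in siFASRL, without overlap. IDH2, its mitochondrial relative, had values of 16.01, 19.1 and 17.8 in siNC and 4.56, 5.67 and 5.22 in siFASRL (-1.6, adjusted p = 1.18e-06). OGDH, the first subunit of the oxoglutarate dehydrogenase complex, went from 88.1, 99.2 and 101 to 33.4, 33.9 and 32.3 (-1.5, adjusted p = 4.19e-07). PDHA1, the most abundant of the list, did not pass the test (-0.01, adjusted p = 0.887). In the pentose phosphate pathway RPIA, the isomerase of ribose phosphate, rose from 6.43, 6.41 and 6.97 to 16.4, 17.2 and 18.1 (1.26, adjusted p = 5.99e-07). TKT, the abundant transketolase, did not pass the test (-0.05, adjusted p = 0.586). Glycolysis itself moved little, with a median of -0.14 over 15 genes (-0.27 to -0.03 over the scalings). ALDOC, the aldolase of brain, had values of 18.4, 17.04 and 16.1 in siNC and 2.37, 2.95 and 2.57 in siFASRL (-2.32, adjusted p = 1.95e-07). GAPDH did not pass the test (0.15, adjusted p = 0.0823), and the glucose carrier SLC2A3 rose by 0.85. Of 9 genes of gluconeogenesis and glycogen, 5 were lower and none higher, with PCK1, the carboxykinase of gluconeogenesis, at -0.71.

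Most genes of amino acid breakdown fell, and detoxification genes fell in number but not in sum. Of all tested genes 43.5% were lower and 33.9% higher. Of 18 tested enzymes of amino acid breakdown and the urea cycle, 16 were lower and none higher (median -0.54), or 15 of 17 without ALDH4A1, which passed the filter through siNC alone. OAT, the ornithine aminotransferase, had values of 28.6, 28.9 and 28.1 in siNC and 11.3, 12.5 and 13.7 in siFASRL (-1.13, adjusted p = 2.02e-06). HIBADH, of valine breakdown, changed by -1.07, and SHMT1, the cytosolic serine hydroxymethyltransferase, by -1.07. ASS1, the most abundant, fell slightly (-0.22, adjusted p = 0.00864). Among 18 tested detoxification genes 14 were lower and 3 higher (median -0.41). Their summed values were 1945, 2159 and 2132 in siNC and 1979, 2177 and 2070.3 in siFASRL, with overlapping groups, and GSTP1, the most abundant, did not pass the test (0.17, adjusted p = 0.0773). MGST3, a microsomal glutathione transferase, went from 154, 132 and 129.9 to 52.3, 57.97 and 58.6 (-1.28, adjusted p = 2.27e-06). GSTM4 (-1.17) and GSTA4 (-1.22), soluble glutathione transferases, were called lower as well. NNMT, which methylates nicotinamide, rose with values of 15.1, 15.5 and 15.4 in siNC and 42.3, 42.95 and 43.5 in siFASRL (1.43, adjusted p = 1.95e-07). Of 18 heme and iron genes 11 were lower and 6 higher (median -0.33, and -0.38 to -0.25 over the scalings). HMOX1, the heme oxygenase, fell from 18.9, 19.6 and 18.3 to 6.99, 8.52 and 7.15 (-1.22, adjusted p = 2.11e-06), and ALAD, of heme synthesis, changed by -1.18. TFRC, the transferrin receptor, rose from 55.9, 56.4 and 53.4 to 105, 111 and 114 (0.98), and FTH1 rose by 0.62. NRF2 targets and redox genes, some of them in other lists too, gave 8 higher (29.6%) and 12 lower (44.4%) of 27, with a median of -0.11. These shares stay near those of all tested genes. PRDX3, the mitochondrial peroxiredoxin, fell (-1.11), and TXNIP, the inhibitor of thioredoxin, rose from 25.7, 26.2 and 23.4 to 66.4, 65.2 and 67.9 (1.37, adjusted p = 3.92e-07).

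The respiratory chain did not move in a single direction. Of 16 complex I genes 4 were higher and 5 lower, and the sign of the median changed under quantile and loess normalization. NDUFA2 (-1.02) and NDUFAB1 (-1.03), 2 accessory subunits of complex I, were called lower. They fell short of the threshold at -0.9986 without siNC replicate 3 for NDUFA2 and at -0.94, -0.97 and -0.93 without siFASRL replicate 1, siNC replicate 2 and siNC replicate 3 in turn for NDUFAB1. Complexes II to IV gave 4 higher and 5 lower of 12, and ATP synthase 5 higher and 3 lower of 9, the median of ATP synthase changing sign under loess normalization. CYCS, the gene of cytochrome c, had values of 39.99, 37.3 and 35.9 in siNC and 69.3, 68.1 and 72.5 in siFASRL (0.88, adjusted p = 3.09e-06). ATP5MC2, a c-ring gene of ATP synthase, rose by 0.41. Serine, folate and nucleotide synthesis was divided, 11 higher and 10 lower of 25, with a median that changed sign under quantile and loess normalization. PSAT1, of serine synthesis, was called lower with values of 48.98, 44.4 and 46.2 in siNC and 20.3, 20.8 and 22.1 in siFASRL (-1.11, adjusted p = 1.14e-06). IMPDH2, the enzyme committed to GTP synthesis, rose by 0.85.

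Most tested genes of the secretory route were lower, and the share was highest for those of the endoplasmic reticulum. Of 21 chaperones and other genes of the unfolded protein response, 17 were lower, 2 were higher and 4 were called lower. Of all tested genes 43.5% were lower and 6.2% called lower. The 21 genes had a median of -0.64. Their summed values were 1986, 1925 and 1977 in siNC and 1215, 1253 and 1253 in siFASRL. CREB3L3, an endoplasmic reticulum-bound factor of liver, had values of 25.1, 19.8 and 19.2 in siNC and 2.68, 3.35 and 2.38 in siFASRL (-2.55, adjusted p = 6.06e-07). PDIA4, a disulfide isomerase, had values of 64.9, 70.5 and 68.9 in siNC and 27.3, 27.2 and 28.01 in siFASRL (-1.28, adjusted p = 3.65e-07). SDF2L1 (-1.01), a cofactor of BiP, and SEC24D (-1.06), a coat protein of COPII vesicles, were called lower too, though SDF2L1 fell short of the threshold at -0.95, -0.90 and -0.89 without siFASRL replicate 1, siNC replicate 2 and siNC replicate 3 in turn. CALR, the most abundant chaperone of the list, fell from 389, 372 and 401 to 208, 208 and 208 (-0.89). The siFASRL values of CALR were within 1 unit of each other. Of 39 coat, translocon and trafficking genes 23 were lower and 5 higher (median -0.27, and -0.39 to -0.20 over the scalings). Of these genes 59% were lower and 5.13% called lower, against 43.5% and 6.2% of all tested genes. KDELR3, a receptor that returns chaperones from the Golgi apparatus, had values of 32.05, 28.6 and 29.5 in siNC and 7.24, 7.74 and 7.82 in siFASRL (-1.85, adjusted p = 1.95e-07). RPN2, of the oligosaccharyl transferase, changed by -0.78, whereas ARF1, the most abundant, stayed at -0.01 (adjusted p = 0.909).

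The ATF4 branch was split. Of 18 tested targets 9 were higher and 6 lower, with 3 called in each direction. PPP1R15A, which returns eIF2alpha to its active form, had values of 10.2, 8.84 and 8.42 in siNC and 37.5, 33.6 and 33.2 in siFASRL (1.82, adjusted p = 4.71e-07). SESN2, a stress-induced inhibitor of mTORC1, had values of 5.51, 6.55 and 6.15 in siNC and 1.95, 2.2 and 1.94 in siFASRL (-1.22, adjusted p = 1.44e-06). PSAT1 is an ATF4 target too, and SLC3A2, the most abundant, had a log2 fold change of 0.00 (adjusted p = 0.957). Of 31 lysosomal genes 25 were lower, none was higher and 2 were called lower (6.45%, against 6.2% of all tested genes), with a median of -0.45 and summed values of 1579, 1562 and 1555 in siNC and 1149, 1180.3 and 1181 in siFASRL. SMPD1, the acid sphingomyelinase, had values of 16.3, 21.5 and 20.5 in siNC and 6.59, 6.88 and 6.38 in siFASRL (-1.42, adjusted p = 3.38e-06). LIPA, the acid lipase, went from 29.7, 30.99 and 29.9 to 14.3, 13.9 and 15.5 (-1.003, but -0.99, -0.97 and -0.98 without siFASRL replicate 1, siFASRL replicate 2 and siNC replicate 2 in turn), and PSAP, the most abundant, fell by less (-0.40). Autophagy genes gave 7 higher and 7 lower of 22, and their median changed sign under 3 scalings. ULK1, the kinase that starts autophagy, fell from 44.9, 49.4 and 46.2 to 18.5, 18.9 and 17.1 (-1.32, adjusted p = 5.75e-07), while SQSTM1, a cargo receptor, rose from 154, 173 and 172 to 311, 324 and 312 (0.92). TP53INP2, a nuclear cofactor of autophagy, was called lower (-1.41).

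Interferon-stimulated genes were lower in LM3 after FASRL knockdown. Of 19 tested genes 16 were lower, 3 were higher and 4 were called lower, with a median of -0.56. Of all tested genes 43.5% were lower and 6.2% called lower. Without DDX58 and OASL, which passed the filter through siNC alone, 14 of 17 were lower. OAS1, a sensor of double-stranded RNA, had values of 15.5, 15.3 and 13.5 in siNC and 2.83, 3.81 and 3.33 in siFASRL (-1.87, adjusted p = 7.43e-07). The highest siFASRL value of OAS1 was less than 0.3 of the lowest siNC value. USP18, which limits interferon signalling, fell from 4.98, 5.05 and 4.46 to 1.24, 1.56 and 1.34 (-1.29). IFITM1 changed by -1.19, and STAT2, a transducer of type I interferon, by -1.16 (adjusted p = 3.38e-07). IFITM3, far more abundant than the others, rose slightly (0.26, adjusted p = 0.00999), below the 0.35 median of genes with means of 500 or more. The summed value of the list therefore did not follow its median, at 1032, 1088 and 1158 in siNC and 1150.4, 1141 and 1104 in siFASRL. In antigen presentation, 10 of 16 tested genes were lower and 1 higher (median -0.23, and -0.25 to -0.14 over the scalings). Of the 16 genes, 62.5% were lower and 12.5% called lower, against 43.5% and 6.2% of all tested genes. TAPBP, the tapasin that loads class I molecules, had values of 36, 36.7 and 37.8 in siNC and 16.7, 15.96 and 16.2 in siFASRL (-1.13, adjusted p = 4.58e-07). HLA-DMA was called at low values of 2.29, 1.54 and 3.03 in siNC and 0.44, 0.90 and 0.52 in siFASRL, but fell short of the threshold at -0.93, -0.97, -0.99 and -0.85 without siFASRL replicate 1, siFASRL replicate 3, siNC replicate 1 and siNC replicate 3 in turn. Without HLA-DMA and ERAP2, which passed the filter through siNC alone, 8 of 14 antigen presentation genes were lower and 1 was called. B2M, the light chain of class I, fell slightly (-0.17, adjusted p = 0.0169). Untransfected cells are not among the libraries, so an effect of transfection on OAS1 and STAT2 was not tested.

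Targets of p53 were lower more often than higher, by an amount that depends on the scaling. Of 27 tested p53 targets 16 were lower, 6 were higher and 4 were called lower (median -0.48, and -0.48 to -0.17 over the scalings). Among all tested genes 43.5% were lower and 6.2% were called lower. CDKN1A, the gene of the inhibitor p21, had values of 13.6, 12.4 and 10.9 in siNC and 2.37, 2.42 and 2.08 in siFASRL (-2.01, adjusted p = 3.63e-07). CCNG1, another direct target, went from 48.7, 48.8 and 50.7 to 19.1, 20.1 and 20.7 (-1.26, adjusted p = 3.69e-07), and CCNG2, an atypical cyclin, changed by -1.12. PERP, a desmosomal target of p53, rose from 61.4, 50.7 and 52.6 to 94.3, 94.7 and 99.4 (0.80). CDKN1C, the gene of p57, had values of 95.5, 123 and 113 in siNC and 51.7, 51.9 and 53.4 in siFASRL (-1.06, but -0.97 without siNC replicate 2), while CDKN2A, the most abundant inhibitor, rose by 0.48. CDK6, a kinase of the G1 phase, had values of 32.97, 31.6 and 31.2 in siNC and 99.3, 90.5 and 97 in siFASRL (1.55, adjusted p = 2.42e-07), and all of its siFASRL values were above 90. CCNE2, a cyclin of the G1 to S transition, fell short of the threshold at -0.99.

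Genes of DNA replication and mitosis changed by small amounts. Of 24 replication genes 12 were lower and 4 higher (median -0.20, and -0.20 to -0.13 over the scalings), and of 23 mitosis genes 15 were higher and 3 lower (median 0.21, and 0.11 to 0.29 over the scalings). Among all tested genes 43.5% were lower and 33.9% higher, so the 50% of replication genes that were lower stay near the share of all genes. PCNA, the sliding clamp, had values of 110.4, 112 and 114 in siNC and 73.5, 76.4 and 79.1 in siFASRL (-0.55, adjusted p = 1.75e-05). LIG1, the ligase of lagging strands, changed by -0.81, and MCM7, a helicase subunit, rose by 0.37. BIRC5, the gene of survivin, rose from 17.1, 22.6 and 24.4 to 33.1, 32.4 and 31.6 (0.59), and CDC20, an activator of the anaphase-promoting complex, rose by 0.41. No gene of these 2 lists was called, and the share of cells in each phase was not measured. DNA repair genes were divided, 6 higher and 9 lower of 18, with ERCC1 at 0.72 and XPC at -0.68. Apoptosis regulators gave 8 higher and 11 lower of 26 (7 and 10 of 24 without BMF and HRK, which passed the filter through a single group), and their median changed sign under every other scaling. BMF, a BH3-only activator of cell death, fell from 1.81, 1.94 and 1.92 to 0.26, 0.17 and 0.31 (-1.21, adjusted p = 7.01e-07).

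The cytoskeleton showed large changes of single genes. Of 29 actin genes and regulators 17 were higher and 4 lower (median 0.18, and 0.03 to 0.26 over the scalings). TPM4, a tropomyosin of stress fibers, had values of 155, 128 and 129 in siNC and 414, 434 and 421 in siFASRL (1.62, adjusted p = 7.27e-07). RND3, which counteracts RhoA, went from 7.05, 6.39 and 7.15 to 22.8, 22.04 and 22.9 (1.59, adjusted p = 2.34e-07), and RHOB, an early-response GTPase, from 152, 191 and 179.6 to 424, 417 and 405 (1.26). MSN, which links actin to the membrane, fell from 188, 149.99 and 153 to 81.6, 79.8 and 76.9 (-1.03, adjusted p = 1.06e-05, but -0.92 without siNC replicate 1). ACTB rose slightly (0.26, adjusted p = 0.00494) but not under quantile or loess normalization. VIM, the mesenchymal intermediate filament, had values of 352, 387 and 381 in siNC and 61.4, 69.9 and 72.1 in siFASRL (-2.45, adjusted p = 1.95e-07). Its highest siFASRL value was about 0.2 of its lowest siNC value. NES, the filament of progenitor cells, fell from 10.2, 9.75 and 8.92 to 2.38, 2.44 and 2.13, and the keratins KRT7 (0.84) and KRT80 (0.79) rose. As a list, the 11 intermediate filament genes had no stable direction, since the sign of their median changed with GC centring. The same held for 11 tubulin genes, of which TUBA1A fell (-0.81), TUBA4A rose (0.56) and TUBB2A fell (-0.47).

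Single genes of matrix and junctions changed. Among all tested genes 43.5% were lower. Of 23 genes of laminins, collagens and other matrix 11 were lower and 5 higher (median -0.10, and -0.15 to -0.03 over the scalings), or 11 and 4 of 22 (median -0.24) without COL4A6, which passed the filter through siFASRL alone. COL1A1, a chain of type I collagen, had values of 11.1, 9.53 and 9.17 in siNC and 2.82, 3.29 and 2.93 in siFASRL (-1.45, adjusted p = 1.32e-06). THBS1, an adhesive glycoprotein, rose from 1.74, 2.05 and 1.93 to 5.34, 5.57 and 5.79 (1.18, adjusted p = 8.48e-07). SERPINE2, a serpin of the cell surface, rose by 1.12. Of 10 matrix proteases 7 were lower, 1 was higher and 2 were called lower, or 5 of 8 lower without MMP15 and ADAMTS6, which passed the filter through siNC alone and of which ADAMTS6 was picked after its values were seen. ADAM9, a membrane-bound sheddase, fell from 79.9, 70.5 and 71.04 to 16.8, 17.1 and 17.9 (-2.03, adjusted p = 1.95e-07). MMP24, a membrane-type metalloproteinase, rose from 2.24, 2.97 and 2.93 to 9.0, 9.61 and 9.26 (1.48), and MMP15, of the same type, fell (-1.17). Of the inhibitors, TIMP2 fell from 111, 109 and 106 to 46.8, 49.3 and 47.6 (-1.17), TIMP4 changed by -1.38, and TIMP1 did not pass the test (-0.13, adjusted p = 0.0709). Among 11 tested junction proteins 6 were lower and 2 higher (median -0.25, and -0.25 to -0.11 over the scalings), with F11R, a tight junction adhesion molecule, called lower at values of 2.13, 2.19 and 2.05 in siNC and 0.38, 0.58 and 0.41 in siFASRL. Without F11R, which passed the filter through siNC alone, 5 of 10 were lower. The 6 tested integrins had no stable direction. TGF-beta ligands, receptors and targets had medians that changed sign with the scaling as well. LTBP3 (-1.19) and LTBP4 (-1.2), which hold latent TGF-beta in the matrix, were called lower, and BMP2 rose below the threshold (0.91).

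What remains of hepatocyte character in LM3 fell in part. Of all tested genes 43.5% were lower and 6.2% called lower. Of 63 listed genes of secreted plasma proteins only 14 were tested, 11 of them lower, 1 higher and 3 called lower (median -0.66). Without AGT and PROC, which passed the filter through siNC alone, 9 of 12 were lower (median -0.47). The median of the coagulation and complement genes among them lay between -0.61 and -0.39 over the scalings. VTN, the gene of vitronectin, had values of 14.8, 17.8 and 15.7 in siNC and 6.14, 7.46 and 7.43 in siFASRL (-1.09, adjusted p = 8.73e-06). CFI (-1.13) and F10 (-1.06), proteases of complement and coagulation, were called lower at values under 6. C3, the most abundant, rose from 76.8, 79.4 and 78.2 to 95.2, 98.5 and 95.7 (0.30, adjusted p = 4.31e-04). The 14 tested hepatocyte transcription factors had a median of 0.00 (0.00 to 0.10 over the scalings), with 4 higher and 6 lower. HNF4A changed by -0.998 (adjusted p = 5.66e-06), just short of the threshold, and CEBPA by -0.90. CEBPD was called higher (1.002, adjusted p = 0.00292) with siFASRL values of 45.1, 48.1 and 44.9, but fell short of the threshold at 0.97 and 0.69 without siFASRL replicate 2 and siNC replicate 1 in turn, and CEBPB rose from 48.1, 81.5 and 74.5 to 124, 120.2 and 115 (0.84). In both of these genes siNC replicate 1 was well under the other controls. Solute carriers fell in 79 of 124 tested cases and rose in 19 (median -0.27, and -0.27 to -0.16 over the scalings), with 11 called lower. Without the 9 that passed the filter through siNC alone, 70 of 115 were lower and 8 were called. Counting all of them, 8.87% were called lower, against 6.2% of all tested genes. SLC22A18, an imprinted organic cation carrier, moved most (-1.79, adjusted p = 9.60e-07). SLC25A35, of the mitochondrial carrier family, followed with -1.74. SLC4A11, of the bicarbonate carrier family, changed by -1.3, and SLC6A9, a glycine transporter, by -1.29.

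Further lists gave smaller or mixed results. Of 16 tested hypoxia targets 10 were lower and 4 higher (median -0.64, and -0.64 to -0.34 over the scalings). None was called lower, and 43.5% of all tested genes were lower. P4HA1 (-0.84) and P4HA2 (-0.98), which hydroxylate collagen, fell, whereas ADM, also a hypoxia target, rose, and EPAS1, the gene of HIF2alpha, rose by 0.90. Chromatin enzymes gave 12 higher and 9 lower of 32, with DNMT3B, a de novo DNA methyltransferase, called lower at values of 4.76, 4.79 and 4.88 in siNC and 1.81, 2.01 and 1.88 in siFASRL (-1.003, adjusted p = 8.49e-07, but -0.98, -0.998 and -0.99 without siFASRL replicate 1, siFASRL replicate 3 and siNC replicate 3 in turn). The beta-catenin list had 6 higher and 11 lower of 24 and a median that changed sign with centring and with median-of-ratios scaling. LGR4, a receptor of R-spondins, fell (-0.78). In the machinery of small RNAs AGO2 rose by 0.28, XPO5 rose by 0.42 and AGO4 fell (-0.56). Both groups had received an siRNA.

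Of the genes next to FASRL or named as its partners, 3 were listed. In GENCODE 29 on GRCh38, exon 2 of FASRL (chr16:69742135-69742563, plus strand) lies within an exon of NOB1 on the minus strand. NOB1 had values of 44.8, 50.6 and 51.1 in siNC and 90.9, 89.05 and 89.6 in siFASRL (0.87, adjusted p = 4.32e-06). Whether the counting kept the strands apart is not stated, so reads of this exon cannot be assigned to either gene with certainty. NOB1 is also a factor of 40S maturation. NFAT5, a neighbor on chromosome 16 and a factor of osmotic stress, had values of 13.4, 11.6 and 12.2 in siNC and 8.83, 8.38 and 8.29 in siFASRL (-0.49, adjusted p = 1.15e-04). ACACA, the acetyl-CoA carboxylase, had values of 30.5, 31.9 and 29.9 in siNC and 20.6, 21.2 and 20.5 in siFASRL (-0.55, adjusted p = 1.76e-05), without overlap of the groups.

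The LM3 response was set beside that of HepG2. Most called genes moved the same way in both lines, but their size often differed. The effect differed between the lines for 3868 of 8285 genes (46.7%) at an interaction adjusted p under 0.05 in limma. Of the 570 genes called in LM3, 29 were not tested in HepG2 and 360 differed, 57 of those called higher and 303 of those called lower. Opposite changes, with an adjusted p under 0.05 in HepG2 too, were found for 11 called genes, all of them lower in LM3. The list of genes is a limit here, since only 14 of 7349 HepG2 effects lie between -0.2 and -0.04, against 750 of 7483 in LM3, so HepG2 genes of small decrease are nearly absent from it.

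**Figure D5:**
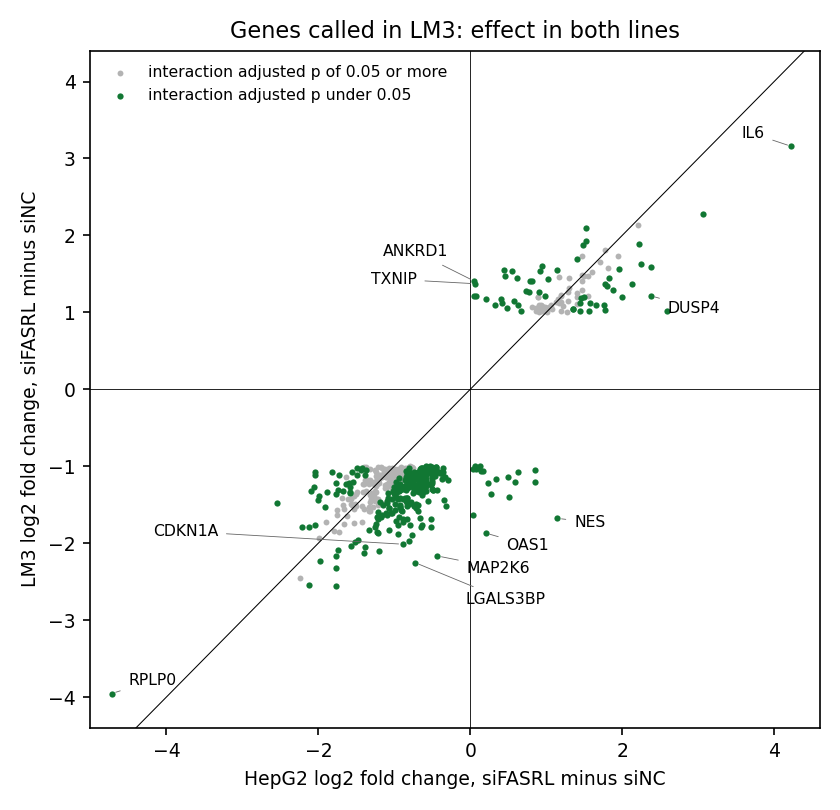
Log2 fold change in LM3 (vertical axis) against HepG2 (horizontal axis) for the genes called in LM3, with genes of differing effect in green. NES, OAS1 and a few others lie to the right of the vertical axis, lower in LM3 and not in HepG2.

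Among the called genes with the largest differences, those lower in LM3 include a filament, an interferon gene and a kinase. NES fell in LM3 and rose in HepG2 (1.15), a difference of -2.82. OAS1 had a HepG2 effect of 0.20, a difference of -2.07 (interaction adjusted p = 8.41e-08). OLFM1, a secreted glycoprotein of neural tissue, fell in LM3 from 20.7, 19.8 and 18.7 to 8.93, 8.08 and 6.97 and rose in HepG2 (0.85). PLLP, a membrane protein of myelin and epithelia, had LM3 values of 35.1, 39.5 and 36.6 in siNC and 13.8, 13.8 and 12.8 in siFASRL and a HepG2 effect of 0.51. KIF3C, a kinesin, had low LM3 values of 1.31, 1.33 and 1.51 in siNC and 0.26, 0.11 and 0.08 in siFASRL and a HepG2 effect of 0.85. MAP2K6 fell far more in LM3, with a difference of -1.73, and LGALS3BP with -1.53. SESN2 (-1.45) and CDKN1A (-1.12), both p53 targets, differed in the same direction. For CDKN1A the HepG2 effect was itself a fall (-0.89).

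Among the genes called higher, ANKRD1, TXNIP and PLPP3 had the largest differences in favour of LM3. TXNIP had a HepG2 effect of 0.06, and the difference was 1.31 (interaction adjusted p = 4.73e-08). ANKRD1 had a HepG2 effect of 0.05 (difference 1.35), while CYR61 rose more in HepG2 (3.06). PLPP3, a phosphatase of lysophosphatidic acid, had LM3 values of 4.6, 4.74 and 5.02 in siNC and 12.4, 12.5 and 12.3 in siFASRL and a HepG2 effect of 0.04. NEDD9, a scaffold of focal adhesions, behaved alike (LM3 1.21, HepG2 0.08). PCSK1, the prohormone convertase with the cAMP response element shown above, had LM3 values of 1.95, 1.86 and 2.02 in siNC and 7.48, 7.55 and 7.85 in siFASRL (1.55, adjusted p = 1.95e-07), against 0.44 in HepG2. CTGF and FST, the gene of follistatin, were not called in LM3. They rose there below the threshold (0.93 and 0.79) and fell in HepG2, with differences of 1.63 and 1.45. IL6 rose more in HepG2, with a difference of -1.07. The cholesterol enzymes FDFT1 (-0.81) and SQLE (-0.74) fell more in LM3.

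These results have limits. A bulk value cannot tell fewer cells with a transcript from less RNA per cell. The p-values measure the spread between these 3 and 3 samples, which may be technical, and say nothing of other siRNAs or cell lines. The labels do not say which siRNA against FASRL was used, so effects of its sequence on other transcripts were not separated. The deposited values are not counts and depth is unknown. Only the listed genes could be read, and direction at low values depends on the scaling. Protein, sterols and cell behavior were not analysed here.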

How the data were processed

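The authors filtered reads with SOAPnuke, aligned them with HISAT2 and Bowtie2 and computed levels with RSEM, and the deposited values are normalized signal with 2 decimals, not counts. Whether this signal is FPKM or TPM is not stated, and depth is unknown. The 6 LM3 libraries were fitted with limma (3.58.1, R 4.3.3) on log2(value + 1) with Benjamini-Hochberg adjustment, and the lines were compared by an interaction over 12 libraries. The fits were tested on simulated data. Python (3.11.15), pandas (2.3.3), scipy (1.17.1) and matplotlib (3.10.9) were used. Members and gene lists were chosen with earlier results of these data known. Named genes are taken from the 12 largest rises and falls, up to 4 members per list with the largest changes at adjusted p under 0.05 and the most abundant, all marker genes and FASRL neighbors, and 5 called genes per direction with the largest line difference or the highest siNC mean. Other genes are said to be chosen after their values were seen. Promoters are from RefSeq on GRCh38.p14.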

Additional observations from a re-analysis of the deposited data

Results flagged for a closer look

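Some genes named in the text responded differently in the 2 cell lines. The limma interaction test compared the LM3 effect with the HepG2 effect, and differences of at least 1 on the log2 scale with an adjusted p under 0.05 are given as LM3 minus HepG2. Negative differences were -2.82 for NES, -2.07 for OAS1, -2.06 for OLFM1, -1.91 for PLLP, -1.9 for KIF3C, -1.73 for MAP2K6, -1.56 for CSF1, -1.53 for LGALS3BP, -1.47 for TUBA1A and -1.45 for SESN2. Smaller negative ones were -1.34 for TUBB2A, -1.31 for BMP2, -1.21 for HSPB1, -1.17 for IDH1, -1.16 for DUSP4, -1.13 for DNMT3B, -1.12 for CDKN1A, -1.1 for COL1A1, -1.07 for IL6 and -1.02 for PCK1. Positive differences were 1.63 for CTGF, 1.45 for FST, 1.35 for ANKRD1, 1.31 for TXNIP, 1.17 for PLPP3, 1.13 for NEDD9, 1.11 for PCSK1 and 1.02 for MMP24.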

How the results depend on the processing

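Each choice was changed alone, against 570 called genes (106 higher, 464 lower). A pseudocount of 0.1 gave 900 called and 753 lower, and a pseudocount of 5 gave 180, with 52 higher and 128 lower. Requiring a mean of at least 5 gave 371, with 276 lower. Quantile normalization gave 163 higher and 260 lower, and cyclic loess normalization, chosen after seeing the data, gave 272 lower. Centring within GC bins, also chosen then, gave 487. Without a fold change threshold 5790 genes were called, 2536 higher and 3254 lower, and with a fold change of at least 1.5 there were 2037, 622 higher and 1415 lower. Leaving out each replicate in turn gave 558 to 588. With the replicate number as a block 570 were called, and deviations of same-numbered libraries from their group means correlated with -0.0801, 0.118 and -0.175, so the numbers do not pair libraries. The count of genes that differ between the lines did not move by more than 1.5 times under any setting.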
